A study of Mus musculus with 2 samples.

Results

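The wells described here hold single cells chosen on the summed transcripts of Gsn, Ly6a, Pdgfra and Clec3b, genes expressed in connective tissue fibroblasts, and most of them were chosen through Gsn. They were sorted from the periosteum, the connective tissue sheath around bone, of mouse tibia and femur. The αSMACreER transgene expresses a tamoxifen-activated Cre from the αSMA (Acta2) promoter, and the Ai9 reporter then marks the cells that expressed αSMA, and their descendants, with red Tomato. αSMACreER also marks some muscle satellite cells. Tomato+ cells were sorted with 1 cell per well from 3 pools of 2 to 3 female mice after 2 tamoxifen doses of 75 mg/kg, with chases of 2, 43 and 96 days, called 2 days, 6 weeks and 13 weeks.

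Mice of the first 2 time points carried αSMACreER/Ai9/Col2.3GFP and were 10.3 and 14.4 weeks old. At 13 weeks the mice were 20.1 weeks old, carried αSMACreER, Ai9, R26-M2rtTA and TetOP-H2B-GFP, and had been given doxycycline for 5 weeks. Cells of 2 days and 13 weeks were sorted onto 1 plate (the mixed plate), those of 6 weeks onto another. At 13 weeks the effects of strain, age, doxycycline and chase cannot be told apart, nor can those of plate and time at 6 weeks. With 1 pool per time point there is no replicate, so no difference below was tested. The intervals are 95% intervals and cover counting error only.

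Of 600 wells assigned to a time point, 503 held at least 200 genes and were kept. Member wells were chosen by their counts of unique molecular identifiers (UMIs, 1 per captured transcript). They had at least 3 UMIs summed over Gsn, Ly6a, Pdgfra and Clec3b and at most 2 UMIs of the tendon genes Thbs4, Fmod and Tnmd. They also had no UMI of Rgs5, a pericyte gene, and none of the satellite cell genes Pax7, Myf5, Myod1, Cdh15 and Calcr. This rule took 85 of the 503 wells. The values of these 13 genes, which chose the members, are a description. The members held 97431 UMIs (329 to 3870 per well, median 903), against a median of 677.5 in the 418 other wells. The median share of mitochondrial transcripts was 3.70% in members and 5.16% in other wells.

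Fibroblasts make and remodel the collagen matrix of connective tissue. Those of the adventitia and fascia, which lie around vessels and between tissues, are known for Pi16, Dpp4, Cd34, Dpt and Ly6a (Sca1), and for secreting microfibril and complement proteins. Pdgfra encodes a platelet-derived growth factor receptor that marks fibroblasts and mesenchymal progenitors, Gsn the actin-severing protein gelsolin, and Clec3b the secreted lectin tetranectin. In the GRCm38 annotation (GENCODE M21) Gsn lies on chromosome 2 at 35256380 to 35307892, Ly6a on chromosome 15 at 74994877 to 74998031, Pdgfra on chromosome 5 at 75152292 to 75198215 and Clec3b on chromosome 9 at 123150946 to 123157432. The 2 marker genes given for these cells that the rule did not use, Col3a1 and Dcn, lie on chromosome 1 at 45311538 to 45349706 and chromosome 10 at 97479609 to 97518143. All 6 are protein-coding, and the libraries sample the 3′ ends of their transcripts.

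Gsn dominated the choice. It was seen in all 85 members, with 1 to 76 UMIs and a median of 12, and in 83 members Gsn alone reached the threshold. Ly6a was seen in 71 members, Clec3b in 42 and Pdgfra in 33. All 4 genes were seen in 15 members, 3 of them in 38, 2 in 25 and Gsn alone in 7. A further 76 wells reached the threshold and failed another condition: 46 held more than 2 tendon UMIs, 23 held Rgs5 and 11 a satellite gene, some of them more than 1 of these. Such wells count among the other wells below. Among the members, 43 held 1 or 2 tendon UMIs. Of the wells that met the negative conditions, 15 had a sum of 2, none a sum of 3, 1 a sum of 4 and 5 a sum of 5, so the threshold lay in a sparse part of the distribution. The 15 wells just outside it had 54.5 UMIs per 10000 (41.9 to 69.7) of the adventitial fibroblast list introduced below. They also had 223 of the skeletal muscle fiber list and 124 of the endothelial list, against 6.26 and 19.2 in members. The 5 wells with a sum of 5 had 144 (105 to 191) of the adventitial list.

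Members were present at each time point. They made up 32 of 181 kept wells at 2 days (17.7%, exact interval 12.4 to 24.0%), 36 of 189 at 6 weeks (19.0%, 13.7 to 25.4%) and 17 of 133 at 13 weeks (12.8%, 7.63 to 19.7%). The shares depend on the negative conditions: in time order they were 6.08%, 13.2% and 4.51% with no tendon UMI allowed, and 35.4%, 33.3% and 25.6% with no negative condition. Within the mixed plate the share was 4.90 percentage points lower at 13 weeks than at 2 days, with an interval of the difference from -13.1 to 3.77 points. The interval includes 0, and also differences of more than 10 points. For comparison the other wells were split into 171 with 3 or more tendon UMIs (tendon-gene wells), 110 with Rgs5 (Rgs5 wells), 65 with a satellite gene and 72 remaining wells. The kept wells of the plates shared 137 barcodes. Each plate was sorted on its own, and wells with the same barcode on different plates were counted as separate wells.

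**Figure D1:**
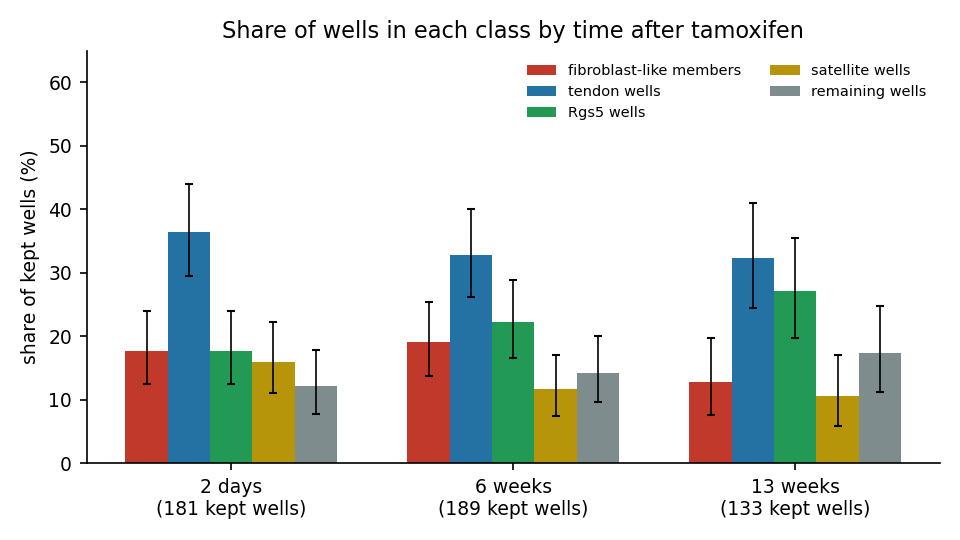
Share of kept wells (%) in each of 5 classes by time point (2 days, 6 weeks, 13 weeks), with 1 pool of mice per time point. Bars are shares and lines exact binomial 95% intervals, and the intervals of the members (17.7%, 19.0% and 12.8%) overlap at the 3 time points.

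The 2 given markers outside the rule were compared next. They were given with the fibroblast label, and the members were chosen with earlier results of these data known. They are thus no independent check of the label. Levels are UMIs per 10000 over pooled wells. Col3a1, which encodes a collagen of loose connective tissue, was seen in 81 of 85 members and in 219 of 418 other wells. With wells thinned to 300 UMIs (all 85 members and 398 others), it was seen in 80.0% of members and 35.2% of others. Its level was 105 in members and 33.8 in other wells, a ratio of 3.11 (2.86 to 3.38), and it was also below the members' level in tendon-gene wells (47.1). Its spread among members was wide, from 0 to 518 per 10000 in single wells with a median of 55.2.

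Dcn, the proteoglycan decorin, was nearly universal. It was seen in 84 of 85 members and 332 of 418 other wells, or 88.2% and 61.8% after thinning. Its level of 94.8 in members was 1.61 times (1.49 to 1.75) that in other wells, but the tendon-gene wells held more (104). Dcn was thus high in both classes, while the pooled Col3a1 level differed between them by 2.23 times (2.03 to 2.46). Col1a1 and Col1a2, the type I collagen chains, were lower in members than in other wells, both with a ratio of 0.76, and their levels in tendon-gene wells (104 and 275) were about 2 times those in members (55.0 and 132).

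**Figure D2:**
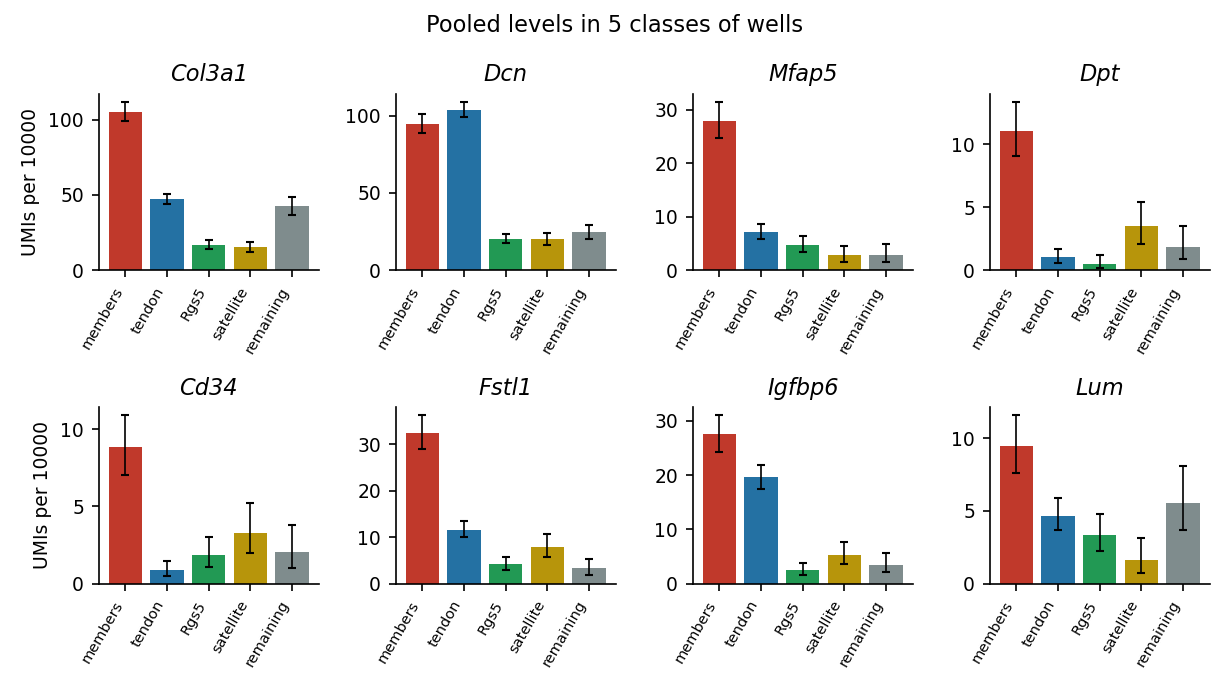
Pooled levels (UMIs per 10000, from 0) of 8 genes in members and in the 4 comparison classes, with exact Poisson 95% intervals. Col3a1, Mfap5, Dpt, Cd34 and Fstl1 were highest in members, while Dcn was at 94.8 in members and 104 in tendon-gene wells.

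Over all genes, a gene was called higher or lower where its pooled level in members differed at least 2-fold from that in the other wells and lay on the same side at each of the 3 time points. Among 1391 genes with 50 or more UMIs in the kept wells, the 13 rule genes left out, 104 were higher in members (7.48%) and 139 were lower (9.99%). Without the negative conditions of the rule 79 genes were lower. The median ratio was 1.01. Because the same wells gave the choice and the levels, each well's UMIs were also split at random into a part for choosing and a part for measuring. The rule's minimum of positive UMIs and its limit on tendon UMIs were lowered for the choosing part. Rgs5 and satellite UMIs were excluded in that part only, so members could hold them in the other. The split left 595 genes above the minimum, of which 46 were higher and 75 lower.

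C3, the central complement component, had a level of 10.2 in members and 0.66 in other wells, a ratio of 15.4 (9.70 to 25.4). Its 99 UMIs in members came from 21 wells, at most 15.2% from any of them, so most members had no C3 UMI at this depth. Adamts5, an aggrecan-cleaving protease, had a ratio of 10.2 (5.58 to 19.9). Dpt, which encodes the matrix protein dermatopontin, had a level of 11.1 against 1.38, a ratio of 8.04 (5.68 to 11.6). It was seen in 47 members and 36 other wells, or 25.9% and 2.76% after thinning.

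Next in order were Ccl11 (eotaxin, 7.93), Pcolce2 (a procollagen C-proteinase enhancer, 7.69), Col14a1 (a fibril-associated collagen, 7.60), Pi16 (7.35), Lbp (lipopolysaccharide-binding protein, 6.97), Cd248 (endosialin, 6.49) and Myoc (myocilin, 6.20). These values are ratios of members to other wells. Ccl11 leaned on a single well, which held 35.3% of its UMIs in members. Myoc was broader, with UMIs in 53 of 85 members and 35 of 418 other wells. The remaining genes of the 20 highest were Tmem100, Mfap5, Cd34, Scara5, S100a10, Trim47, Lgals3, Prss23, Fbn1 and Smoc2, with ratios from 5.36 down to 4.29.

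**Figure D3:**
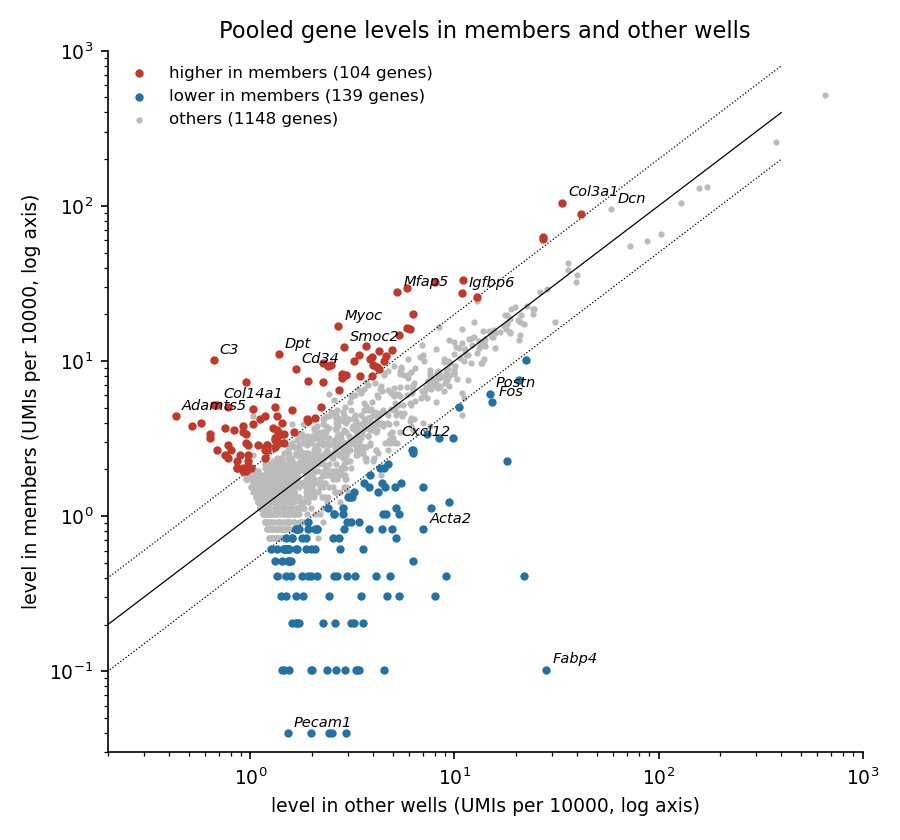
Pooled level (UMIs per 10000, log axes) of 1391 genes in members against the 418 other wells, with the lines of equal level (solid) and of 2-fold difference (dotted). The 104 genes called higher and the 139 called lower are colored, and the 5 genes with no UMI in members stand at the bottom edge.

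The adventitial fibroblast list stood furthest above the other wells over the time points pooled. All 39 listed genes had UMIs in members and 18 reached the minimum, of which 17 were higher, none was lower, and the median ratio was 5.17. Against a background of 7.48% of all genes, this is the list with the largest share called higher among those with at least 5 genes compared. The rule used Ly6a, a gene these fibroblasts are known for, so the high levels follow in part from the rule. The list was also chosen with earlier results of these data known. Its summed level was 171 (163 to 180) in members and 45.8 (43.5 to 48.1) in other wells, a ratio of 3.74 (3.49 to 4.01). It was detected in 84 members, from 0 to 535 per 10000 in single wells with a median of 153, and the median in other wells was 31.5. At 6 weeks the complement list had a ratio of 3.43 against 3.41 for this list. At 2 days the immune list had 4.18 against 3.49, most of it from a single well.

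Mfap5, which encodes a microfibril glycoprotein, had the most UMIs of this list (272). It was seen in 68 members and 95 other wells, or 51.8% and 10.3% after thinning, and its ratio was 5.34 (4.41 to 6.48). Cd34, a surface sialomucin, had a level of 8.83 in members, 0.88 in tendon-gene wells and 1.84 in Rgs5 wells. Igfbp6 went less far, at 27.5 in members and 19.6 in tendon-gene wells. Anxa3 (annexin A3) was the exception, with a ratio of 0.57 (0.22 to 1.27). A further 21 genes of the list had UMIs below the minimum, and 17 of them had a level in members above that in other wells, with no condition on its size or on the time points, among them Dpp4 (19 UMIs against 22) and Ebf2 (14 against 5).

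Counts of called genes in this and the following lists stand against 7.48% of all genes higher and 9.99% lower. Of 12 elastic fiber and microfibril genes compared, 7 were higher (Fbn1, Fbln1, Fbln2, Mfap5, Ltbp4, Loxl1 and Tgfbi), and Ltbp3, which binds latent TGF-β, was lower. The first 4 of these also stand in the adventitial list. Fbn1, which encodes fibrillin-1, had a level of 9.75 in members and 2.27 in other wells, and Ltbp4 had 10.6 and 3.96. Of 13 fibrillar and fibril-associated collagens, Col3a1, Col5a3, Col14a1 and Col6a3 were higher and Col11a1, Col12a1 and Col16a1 lower. Col11a1 and Col12a1, collagens of cartilage and tendon fibrils, had ratios of 0.08 and 0.13. Both also stand in the tendon list below, and part of their low ratios follows from the rule, which left out tendon-gene wells. The summed collagen level was 341 in members and 323 in other wells, and the ratio was 1.04, 0.86 and 1.55 at 2 days, 6 weeks and 13 weeks.

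Small leucine-rich proteoglycans bind collagen fibrils. Of 9 compared, Lum (lumican) was higher with a ratio of 2.37 (1.80 to 3.10). Kera, Ogn and Chad were lower, with ratios of 0.10, 0.48 and 0.22. The single higher gene is near the 7.48% of all genes, and the lower genes are above the 9.99%. Kera, Ogn and Chad also stand in the tendon list, and part of their low ratios follows from the rule. The fibroblast identity list held 25 genes compared, of which Col3a1, Fstl1, Lum, Col6a3, S100a6, Loxl1 and Islr were higher. Pdgfrl was the lower gene of this list, against 7.48% of all genes higher and 9.99% lower. Its summed level was 772 in members and 644 in other wells, a ratio of 1.20 (1.17 to 1.23), with 983 in tendon-gene wells. The interval of this ratio lay above 1 at 2 days (1.09 to 1.18) and 13 weeks (1.70 to 1.93) and included 1 at 6 weeks (0.96 to 1.04). The higher ratio at 13 weeks went with lower levels in both groups: 821 at 2 days and 653 at 13 weeks in members, 725 and 361 in other wells. The Rgs5 wells among the kept wells went from 17.7% to 27.1% over the same times, and the part of this shift in the ratio was not tested. Fstl1, a secreted follistatin-like protein, stood out with 32.4 in members, 11.6 in tendon-gene wells and 4.15 in Rgs5 wells.

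Of 6 complement genes compared, 4 were higher, against 7.48% of all genes. These were C3, the proteases C1ra (3.27) and C1s (3.87) that start the classical pathway, and their inhibitor Serping1 (2.73). Clu (clusterin) had a ratio of 1.05. Of 8 insulin-like growth factor genes, none was lower. The binding proteins Igfbp4 (3.21), Igfbp5 (3.04) and Igfbp6 (2.53) were higher, against 7.48% of all genes. The ligand Igf1 had a ratio of 2.52 (1.78 to 3.55) but was below the other wells at 13 weeks. Of 21 proteases and inhibitors, Adamts5, Htra3, Pcolce2 and Serping1 were higher and Adamts1 lower, against 7.48% and 9.99% of all genes. Each higher gene was already counted, Serping1 in the complement list and the others in the adventitial list. The summed ratio of the protease list was 1.15 (1.09 to 1.22), and 0.99 (0.85 to 1.14) at 13 weeks. With no tendon UMI allowed in members, Htra3 was at 0.92 (0.32 to 2.11). Of 10 Wnt, BMP and TGF-β modulators, Fstl1 and Ltbp4 were higher, and Wif1 (0.13), Wisp1 (0.45) and Tgfbr3 (0.40) were lower. The shares of all genes were 7.48% and 9.99%. Without the negative conditions of the rule, Wif1 was at 1.37 (0.88 to 2.13).

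**Figure D4:**
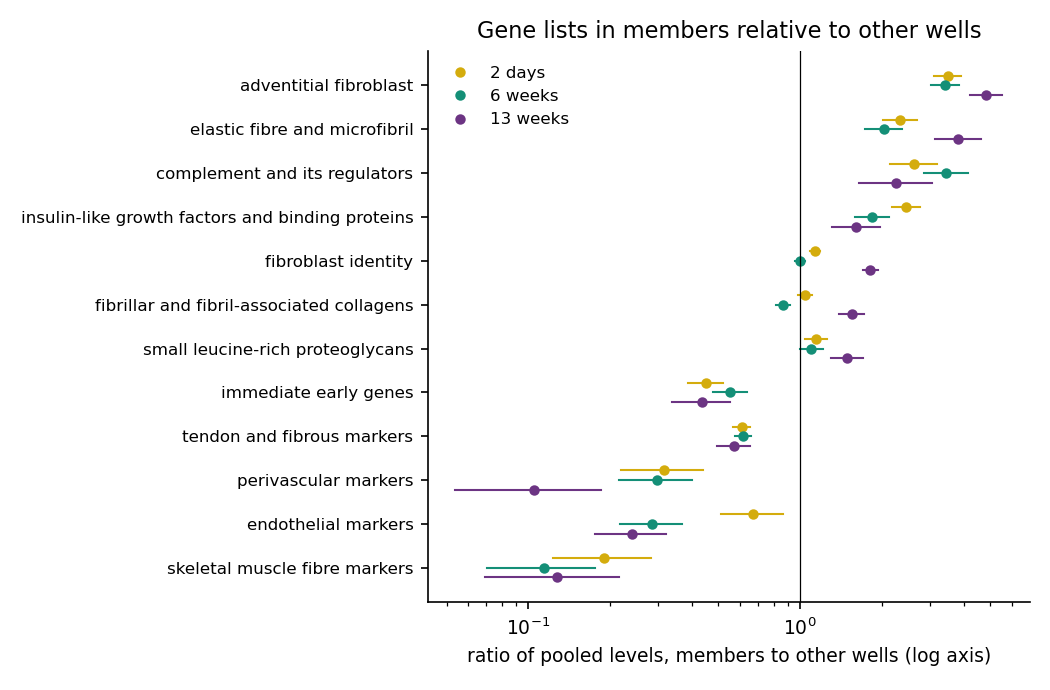
Ratio of the summed pooled level of 12 gene lists in members to that in other wells (log axis) at 2 days, 6 weeks and 13 weeks, with 95% counting intervals and rule genes left out. The adventitial fibroblast list lay between 3.41 and 4.82 at each time point, and the muscle fiber, endothelial and perivascular lists lay below 1.

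Most lists of other cell types were below the other wells, and the Schwann, epineurial and immune lists were not. The Schwann cell list had a ratio of 1.16 (0.76 to 1.72) and was seen in 25 of 85 members (29.4%) and 74 of 418 other wells (17.7%). The epineurial and perineurial list had 12 UMIs in members and a ratio of 1.38 (0.65 to 2.77). Pecam1, Cdh5 and Kdr, the defining endothelial genes, had no UMI in 85 members and were seen in 47 of 418 other wells. The exact interval for the share of members with such a UMI reaches 4.25% (3.53% by a floor of 3 counts), which does not limit the share of cells that express these genes. Of 8 endothelial genes compared, 7 were lower, and Ly6c1, a Ly6 family gene that also stands in the adventitial list, was higher (2.76). Ly6c1 gave 158 of the 187 endothelial list UMIs of the members. Fabp4, a fatty acid binding protein, had 1 UMI in members and 978 in other wells, a level 274 times lower in members (49.0 to 10815). Of 11 perivascular genes, 9 were lower. Low perivascular and endothelial levels follow in part from the rule, which left out the Rgs5 wells, where the perivascular list was at 78.5 and the endothelial list at 184 per 10000. Acta2 itself, whose promoter drove the label, had 8 UMIs in 8 members and a ratio of 0.12 (0.05 to 0.23). Myh11, the smooth muscle myosin, had none and was at least 8.11-fold lower.

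The 14 lower genes of the 19 tendon and fibrous genes compared included Scx, the tendon transcription factor (0.12), Comp (0.22), Cilp2 (0.06) and Angptl7 (0.04). Part of this follows from the rule, which limited Thbs4, Fmod and Tnmd. Col14a1 was the tendon list gene that was higher. Of 10 skeletal muscle fiber genes 9 were lower, although Tnnt1 was at 2.34 (1.59 to 3.43) with a positive sum of 2 or more. Among the members as chosen, none held more than 3 UMIs of that list, and 44 of 85 members (51.8%) and 233 of 418 other wells (55.7%) had at least 1. All 4 hemoglobin genes compared were lower. Ptprc, the leukocyte gene CD45, had 1 UMI in 1 member. That same member, of 2 days, held 37 of the 48 immune list UMIs of all members, including 21 of S100a8 and 13 of S100a9. Without that well the immune list ratio was 0.31 instead of 1.33.

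Skeletal stem and periosteal progenitor markers formed the next list. Of 13 compared, Nov (Ccn3) was higher with a ratio of 2.31 (1.45 to 3.65), and Cd200, Postn, Acta2 and Ctgf were lower. The single higher gene is about the share of all genes that were higher (7.48%), and the 4 lower genes are above the share of all genes that were lower (9.99%). Postn, a matricellular protein of the periosteum, had a level of 6.16 in members and 25.1 in tendon-gene wells. A single member held 35.0% of the members' Postn UMIs, and without the deepest 13-week member the Postn ratio was 0.28 instead of 0.41. Prrx1 had a ratio of 1.80 (1.30 to 2.47), Thy1 of 1.63 (0.93 to 2.79) and Pdgfrb of 0.61 (0.37 to 0.97). Cxcl12, the niche chemokine, was at 2.98 in members and 13.5 in Rgs5 wells, and its ratio went from 1.45 at 2 days to 0.62 at 6 weeks. No UMI of Cxcl12 was found in the 17 members at 13 weeks.

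Of 8 osteoblast genes none was higher and Bglap2 and Postn were lower, against 7.48% and 9.99% of all genes. Another choice took wells with any UMI of Ly6a, Pdgfra or Clec3b, with Gsn not counted and the minimum of 3 UMIs dropped. With it Bglap2 was at 5.36 (3.98 to 7.24) and Bglap at 6.02 (4.92 to 7.40). Reads of the near-identical copies Bglap and Bglap2 may be split between them. Of 8 chemokine and niche genes Ccl11 was higher and Angptl2, Angptl7 and Apoe were lower. The single higher gene is near the share of all genes, and it is the gene that leaned on a single well. Of 8 adipocyte and lipid genes Apod (apolipoprotein D, 3.18) was higher and Fabp4, Cd36 and Apoe were lower. Ifitm3 (2.01) was the only one of 8 MHC class I and interferon-induced genes to be higher, and none was lower. In both lists the single higher gene is near the share of all genes (7.48%). The lower adipocyte and lipid genes are above the share of all genes that were lower (9.99%).

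Immediate early genes respond to stimulation within minutes. Of 17 compared 8 were lower in members, against 9.99% of all genes, among them Fos (0.35), Fosb (0.32), Egr1 (0.45) and Btg2 (0.19). None was higher, and 2 had ratios above 1. The summed level was 52.0 in members, 56.3 in tendon-gene wells, 104 in Rgs5 wells and 219 in satellite-gene wells, and the interval of the ratio of members to tendon-gene wells included 1 (0.92, 0.83 to 1.03). Of 10 heat shock and metallothionein genes, Cryab and Mt2 were lower, against 9.99% of all genes. None of 78 cytosolic ribosomal protein genes and none of 9 mitochondrial genes passed in either direction.

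Members also varied among themselves. Mfap5 was found in 40 of the 47 members with Dpt and in 68 of all 85 members, so these shares were close. Dpt was found in 19 of the 21 members with C3 and in 47 of all 85. Pi16, seen in 21 of 85 members, and Dpp4, seen in 15 of 85, had no member in common and were found together in 4 of 418 other wells, and Col15a1, seen in 16, was found with Pi16 in 5 members and with Dpp4 in 3. With so few UMIs per gene, a gene that was not found is not shown to be absent. The 7 members chosen on Gsn alone had an adventitial list level of 118 (90.5 to 152), against 174 (166 to 183) in the other 78, and their median depth was 731 UMIs against 915.5. Their fibroblast identity level was close to that of the others, at 778 and 771. They were above the other members in the tendon list (293 against 220, ratio 1.33, 1.12 to 1.57), the protease list (1.47, 1.23 to 1.76) and the small proteoglycan list (1.39, 1.12 to 1.70). On few UMIs, they were further above in the epineurial and perineurial list (4 UMIs, 8.95, 1.97 to 33.4) and the muscle fiber list (8 UMIs, 2.70, 1.11 to 5.72). The chondrocyte list (11 UMIs) was at 2.56 (1.23 to 4.83), the osteoblast list at 1.27 (1.04 to 1.54) and the mitochondrial genes at 1.16 (1.02 to 1.32). Whether some of these 7 wells hold another cell type was not tested.

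Within members, levels at 13 weeks were set against those at 2 days, which shared a plate. For 200 genes with 40 or more UMIs in members at these times the median ratio was 1.03. The 17 members at 13 weeks held 20731 UMIs, of which 16.2% came from 1 well. Ratios in the other wells are given for comparison.

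The lowest ratios belonged to Igf1, Gas6, Mgp, Mmp2, Igfbp4, Gpx3, Id3 and Apod. Mgp, the matrix Gla protein that inhibits mineralization, had 381, 225 and 33 UMIs and levels of 95.7, 61.0 and 15.9 in members at 2 days, 6 weeks and 13 weeks. In single wells the medians were 48.6, 28.1 and 12.1 and the highest values 473, 541 and 101 per 10000, and the wells of the time points overlapped. The ratio of 13 weeks to 2 days was 0.17 (0.11 to 0.24) in members and 1.09 (1.01 to 1.19) in other wells. Igf1 was seen in 17 of 32, 10 of 36 and 1 of 17 members, with a ratio of 0.09 (0.01 to 0.35) against 0.37 in other wells. Mmp2, a gelatinase, was seen in 19, 18 and 3 members, with a ratio of 0.18 (0.06 to 0.44) against 0.75. Igfbp4 had a ratio of 0.20 (0.08 to 0.44) against 0.64 in other wells. The ratios in members and in other wells were 0.16 and 0.82 for Gas6, 0.21 and 0.57 for Gpx3, 0.33 and 0.45 for Id3, and 0.34 and 0.55 for Apod, so all 4 were also below 1 in other wells.

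The highest ratios belonged to Srgn, S100a4, Anxa1, Ccl11, Neat1, Fn1, Rn7sk and Cd34. S100a4, a calcium-binding protein of motile fibroblasts, was at 10.1, 11.1 and 39.1 in members at the 3 time points, seen in 13 of 32, 11 of 36 and 11 of 17 wells. Its ratio of 13 weeks to 2 days was 3.89 (2.63 to 5.83) in members and 0.24 (0.16 to 0.36) in other wells. Anxa1, the phospholipid-binding annexin A1, had a ratio of 3.49 (2.03 to 6.17) against 0.87, Fn1 (fibronectin) 2.62 (1.86 to 3.72) against 1.37, and Cd34 2.28 (1.32 to 3.95) against 0.56. The noncoding RNAs Neat1 and Rn7sk were also higher at 13 weeks in the other wells, with ratios of 2.97 against 3.36 and 2.30 against 1.93.

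Srgn and Ccl11 rested on 1 well, the deepest 13-week member with 3362 UMIs. It held all 39 Srgn UMIs and 18 of the 25 Ccl11 UMIs of the 13-week members, and 22 of the 81 of S100a4. Another 13-week member, with 2305 UMIs, held 27 of S100a4. Without the deepest member the 13-week members had no Srgn UMI, the Ccl11 ratio was 1.07 instead of 3.20 (0.86 in other wells) and the S100a4 ratio 3.38. Without both wells the S100a4 ratio was 2.11 (1.29 to 3.45) and the Fn1 ratio 1.45 (0.92 to 2.26). If members had to have no tendon UMI, the Fn1 ratio became 0.92, with 42 members left.

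**Figure D5:**
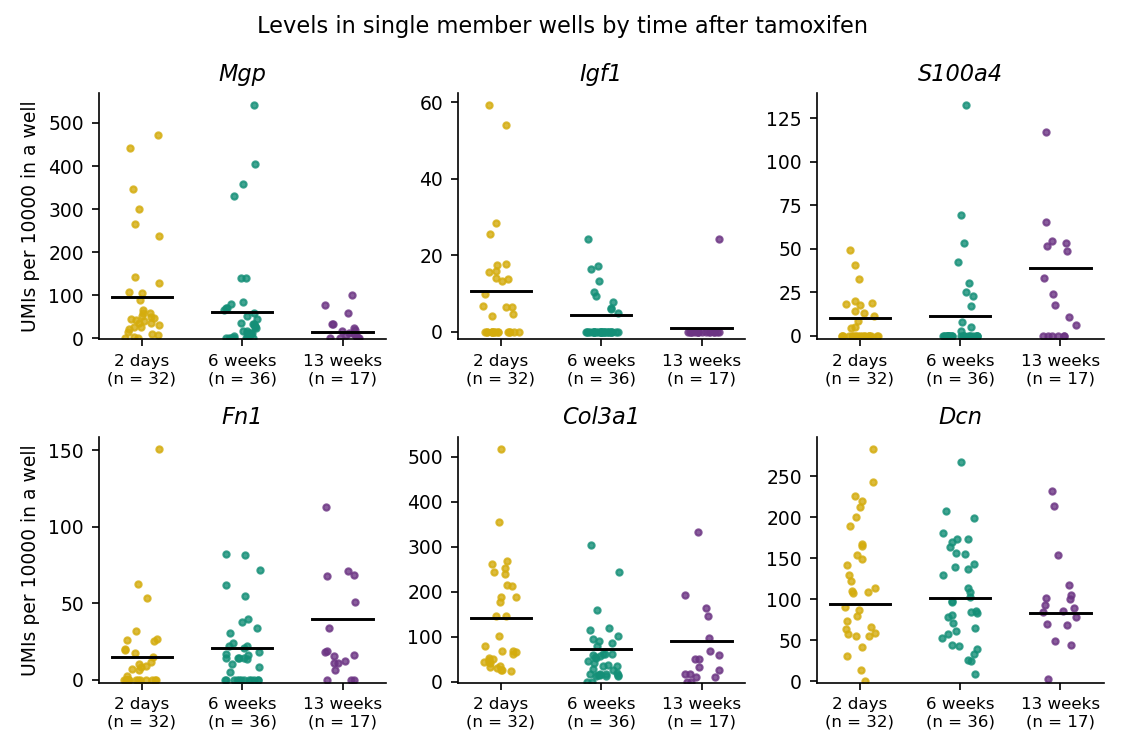
Levels (UMIs per 10000) of 6 genes in each of the 32, 36 and 17 member wells at 2 days, 6 weeks and 13 weeks. Points are wells, spread sideways at random, and the black line is the pooled level, which for Mgp was 95.7, 61.0 and 15.9 and for S100a4 10.1, 11.1 and 39.1.

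The summed fibrillar collagen level in members at 13 weeks was 0.58 times that at 2 days, against 0.39 in the other wells. Col1a1 was at 49.2, 81.9 and 18.3 in members, with a ratio of 13 weeks to 2 days of 0.37 (0.26 to 0.53) against 0.34 in other wells. Col3a1 was at 142, 73.2 and 91.7, and in the other wells at 53.1, 33.7 and 7.83, and its ratio of members to other wells was 2.67, 2.17 and 11.7 at the 3 time points. Dcn stayed between 83.0 and 102 in members. The adventitial list was at 161, 166 and 201 in members and between 41.6 and 48.8 in other wells. The summed level of insulin-like growth factor genes was 124, 81.3 and 62.7 in members and 50.5, 44.2 and 39.0 in other wells. Strain, age, doxycycline and chase time cannot be told apart as sources of these differences.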

How the data were processed

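Tomato+ periosteal cells were sorted singly into 384-well plates and their 3′ transcript ends were sequenced with well barcodes and UMIs. The authors demultiplexed with bcl2fastq 2.18.0.12, and their processing notes also name Picard 2.9.3, STAR 2.5.4a, Drop-seq tools and the GRCm38 (mm10) build. The deposited tables hold counts of UMIs and of reads per well for the genes listed for each plate (12983 for both plates), without normalization.

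Of the wells, 600 were named by a time point and 168 others were not used here. Wells with 200 or more genes were kept. No doublet caller was run. UMIs were pooled over the wells of a class and given per 10000. With 1 pool of mice per time point no test was run. Levels carry exact Poisson intervals, ratios conditional binomial intervals, shares Clopper-Pearson intervals and differences of shares the square-and-add hybrid interval, all at 95%. Against 0 UMIs, folds were set against a floor of 3 counts. The members and the gene lists were chosen with earlier results of these data known. The authors' clusters were not used.

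Named genes were the 20 highest and 12 lowest by ratio among those called, genes of the 30 lists with 20 or more UMIs, and the 8 highest and 8 lowest by time among genes with 40 or more UMIs in members. Alternatives varied the rule, depth, scaling, filters and time points, and 4 that leave out single wells were chosen after seeing the data. The calculations were checked on simulated data. Python 3.11.15, numpy 2.4.6, pandas 2.3.3, scipy 1.17.1 and matplotlib 3.10.9 were used, with gene positions from GENCODE M21.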

Additional observations from a re-analysis of the deposited data

Results flagged for a closer look

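Mgp and S100a4 differed in direction over time between members and other wells. The Mgp level at 13 weeks was 0.166 times that at 2 days in members and 1.09 times in other wells. The S100a4 ratio was 3.89 in members, or 2.11 without 2 wells that held most of its UMIs at 13 weeks, and 0.241 in other wells. These differences between members and other wells were not tested, since each time point is 1 pool.

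Some lists lay on opposite sides of the other wells at different time points. The fibrillar and fibril-associated collagen list had a ratio of members to other wells of 0.863 at 6 weeks and 1.55 at 13 weeks. The immune list had 4.18 at 2 days, and 0.140 at 13 weeks. At 2 days 1 member held 37 of its UMIs, and without that well 1 UMI was left and the ratio was 0.116, below 1 as at 13 weeks. The cytosolic ribosomal protein list had 0.793 at 2 days and 1.17 at 6 weeks. None of these differences was tested.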

How the results depend on the processing

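The results were recomputed under 26 alternatives, 4 of them (leaving out the deepest 13-week member, the 13-week member with the most S100a4 UMIs, both of these, or the 2-day member with the most immune UMIs) chosen after seeing the data. No paired analysis was possible because each time point is 1 pool of mice and the result comes from no test. Low UMI numbers per well limit what a missing transcript shows. Where a value moved, the cause was not tested beyond the alternative's own construction. Values below are ratios of members to other wells unless stated.

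With a positive sum of 2 or more, the fibroblast identity list was at 1.09, the fibrillar collagen list at 0.948 and Tnnt1 at 2.34. With no negative conditions there were 161 members (35.4%, 33.3% and 25.6% of wells at 2 days, 6 weeks and 13 weeks), 79 genes of 1391 were lower, the chondrocyte list was at 1.02 and Wif1 at 1.37. With no tendon UMI allowed there were 42 members (6.08%, 13.2% and 4.51%), the fibroblast identity list was at 1.14, the adventitial list at 2.87 and Htra3 at 0.918, and the 13-week to 2-day ratios in members were 0 for Srgn and 0.924 for Fn1. With Gsn not counted and any UMI of the other positive genes enough, the adventitial list was at 3.45, Bglap at 6.02 and Bglap2 at 5.36.

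With wells thinned to 300 UMIs, 34 genes were higher and 38 lower of 359 compared, 3 adventitial genes of 3 compared were higher, the fibroblast identity list was at 1.28 and the chemokine list at 1.01. With separate UMIs for choosing and measuring, and the rule's limits changed as given above, 46 genes were higher and 75 lower of 595. In that split 7 adventitial genes of 7 were higher. The fibroblast identity list was then at 1.06, the adventitial list at 3.38, the fibrillar collagen list at 0.950 and Cxcl12 at 1.21. With a minimum of 20 UMIs 256 genes were higher and 440 lower of 3785, and with 100 UMIs 48 and 69 of 590, with 8 of 8 adventitial genes higher.

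The fibroblast identity list was at 1.26 with the mean of wells and with reads, 1.15 without mitochondrial, Gm26924 and ribosomal genes, and 1.25 without the deepest 5% of wells, where the Srgn ratio over time was 0. It was 0 also without the deepest 13-week member, and without both 13-week members. The adventitial list was at 4.44 with reads. Without 2 days, 6 weeks and 13 weeks the fibroblast identity list was at 1.24, 1.34 and 1.07. Without 2 days, 8 of 8 adventitial genes were higher and Bglap was at 1.26. Without 6 weeks, 8 of 8 were higher. Without 13 weeks the adventitial list was at 3.45 and the fibrillar collagen list at 0.951.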
